A study of Homo sapiens with 12 samples.

Results

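Expression of 10 neighbouring genes on the long arm of chromosome 4 was examined in LNCaP-AI and DU-145 prostate cancer cells with and without silencing of MUC1. The genes, in chromosome order, were PKD2, ABCG2, PPM1K, PPM1K-DT, HERC6, HERC5, PIGY, HERC3, NAP1L5 and FAM13A, which are 10 of the 58037 identifiers in the deposited counts. They span 1.10 Mb, from 88007635 to 89111398 on chromosome 4 of GRCh38 in GENCODE release 44. They were selected on position, as neighbours at 4q22, and on the DOX differences of these same samples, that of HERC3 among them. Their DOX differences below, and the calls made on them, are therefore given as a description, not read as a test, and as support for nothing. The difference between the cell lines in vehicle was not itself used in the choice and was tested. It shares its vehicle samples with the DOX differences, so this test is not fully independent of the choice.

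LNCaP-AI cells are androgen-independent cells that the authors derived from C4-2B, a descendant of LNCaP, by long culture in charcoal-stripped serum, and DU-145 is an androgen-insensitive prostate cancer line. Both were transduced with pLKO-tet-puro carrying a MUC1 shRNA and selected in puromycin, so all 12 samples carry the vector. LNCaP-AI cells were kept in phenol red-free medium with charcoal-stripped serum. For DU-145 cells the labels give this medium too, whereas the methods give standard medium with heat-inactivated serum, so a difference in medium between the lines was not settled. The 4 groups were DU-145/tet-MUC1shRNA cells and LNCaP-AI/tet-MUC1shRNA cells given vehicle (DMSO) or 500 ng/ml doxycycline (DOX) for 7 days, with 3 samples per group. The labels name the vehicle samples shCTL and the DOX samples shMUC1, whereas the methods and legends describe the same tet-MUC1shRNA cells with vehicle or DOX. No DOX-treated control shRNA cells were analysed here, and the effects of DOX and of the shRNA cannot be told apart. Cells were cultured in triplicate, and whether the p-values below measure more than the spread between parallel cultures is not stated.

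The genes of the locus belong to unrelated pathways. HERC3, HERC5 and HERC6 are small HERC proteins, which join a HECT ubiquitin ligase domain to a repeat fold like that of RCC1, and HERC5 is the main human ligase for ISG15, the ubiquitin-like protein that interferon induces. PPM1K is the mitochondrial phosphatase that switches on the branched-chain ketoacid dehydrogenase (BCKDH), the complex that commits leucine, isoleucine and valine to breakdown, and PPM1K-DT is a long noncoding RNA transcribed away from it. PIGY is a subunit of the enzyme that starts GPI anchor synthesis. NAP1L5 is an intronless, imprinted gene of the nucleosome assembly protein family that lies inside an intron of HERC3. FAM13A has a GTPase-activating domain, ABCG2 is a drug efflux transporter, and PKD2 encodes the cation channel polycystin-2.

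Total counts ran from 10423437 to 13544153 in the DU-145 samples and from 16569613 to 26961777 in the LNCaP-AI samples. MUC1 had 74, 60 and 59 counts in DU-145 vehicle samples and 3 counts in each DOX sample, and 36, 25 and 52 against 8, 6 and 3 in LNCaP-AI cells. FOLH1, KLK3 and HOXB13, markers of the LNCaP lineage, were at 0 in all DU-145 samples and present in LNCaP-AI cells. The 4 leukocyte markers summed to at most 3 counts per sample, and the 4 stromal and endothelial markers to between 25 and 57 counts in DU-145 and between 400 and 827 in LNCaP-AI cells. The LNCaP-AI samples did not divide by treatment on their first principal component (82.5% of the variance), where vehicle 1, DOX 2 and DOX 3 lay apart from vehicle 2, vehicle 3 and DOX 1. Neither the labels nor the methods name a batch that matches this division. LNCaP-AI log2 differences within the 2 sides are given, the side of vehicle 1 first, beside the results of the locus genes and of most other genes named. Among the genes without them are ENSG00000251095, TRIM22, SAMD9L, PKD2L2 and the genes most like HERC3.

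In LNCaP-AI cells the locus genes that stood higher with DOX lay next to each other, from PPM1K to HERC3 with PIGY not measured among them. The other coding genes of the locus did not stand higher. Further out, SPARCL1 (0.98, SE 0.369) and C4orf36 (0.32, SE 0.118) also had all DOX samples above all vehicle samples in CPM, with neither called. The groups of the other listed flanking genes tested overlapped. Outside this run the noncoding RNAs FAM13A-AS1 (1.32, SE 0.462, not called), next to HERC3, and ENSG00000251095 (1.64, SE 0.193, called) were higher with DOX too. The share of all genes whose groups did not overlap was not computed, so nothing is read from overlap alone. HERC3 and PPM1K were also, of the 8 locus genes tested, the 2 that stood highest in LNCaP-AI over DU-145 cells in vehicle. In DU-145 cells HERC3 was modestly higher with DOX, PPM1K, HERC6 and HERC5 had log2 fold changes between -0.13 and 0.04, and PKD2 and ABCG2 at the centromeric end were lower. Called below means an adjusted p under 0.05 by edgeR's quasi-likelihood test over all genes. For the DOX differences of the locus genes, calls are a description only, and they are counted beside the share of all genes called. Levels are CPM, counts relative to library size normalized by TMM over the 12 samples.

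**Figure D1:**
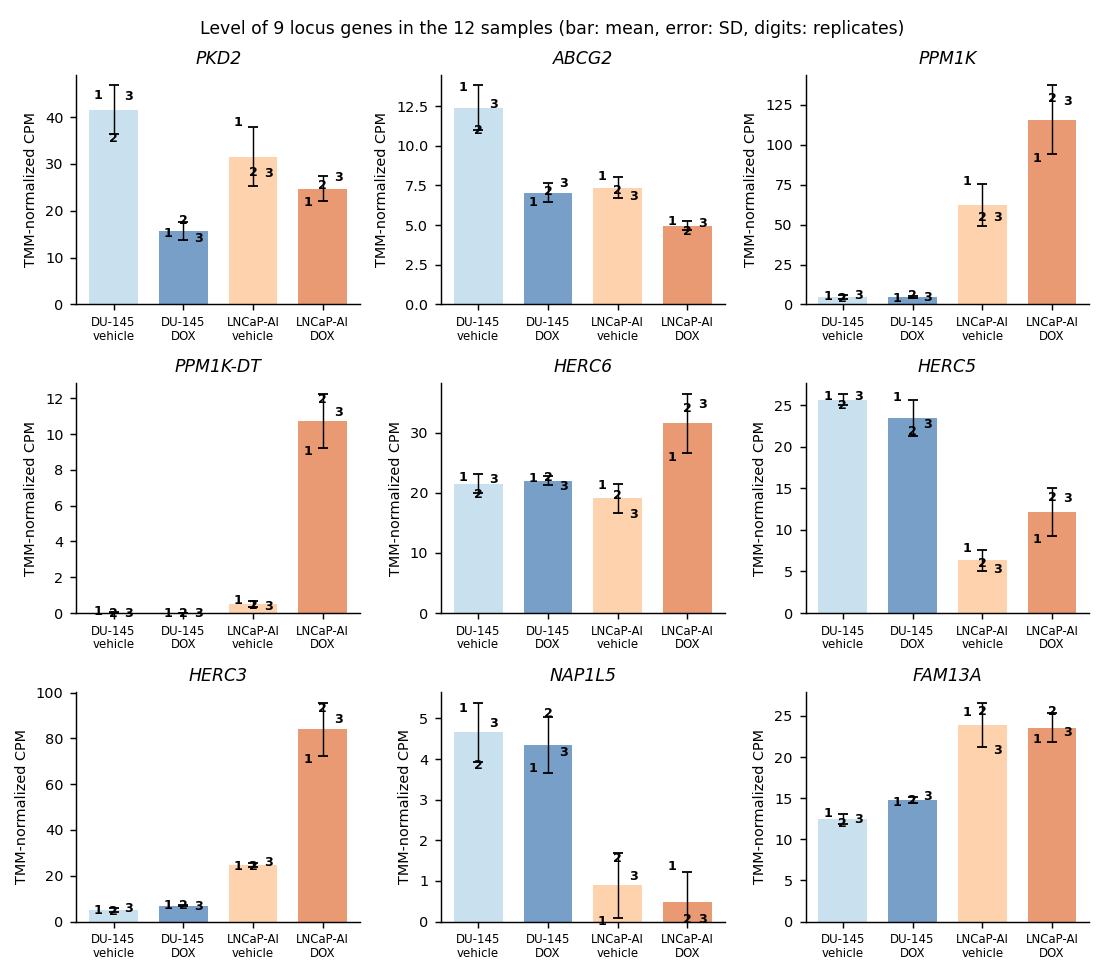
TMM-normalized CPM (vertical axes from 0, a scale for each gene) of 9 locus genes in DU-145 and LNCaP-AI cells with vehicle or DOX; bars show the mean, error bars the SD and digits the 3 replicates, and PIGY is left out because it is listed at 0 throughout. The LNCaP-AI DOX samples stand above the LNCaP-AI vehicle samples for PPM1K, PPM1K-DT, HERC6, HERC5 and HERC3, and the DU-145 DOX samples stand below vehicle for PKD2 and ABCG2.

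The sequences before the start sites of the genes from PPM1K to HERC3 are shown because these are the locus genes that stood higher with DOX in LNCaP-AI cells. Each is the 250 bases before a RefSeq start on GRCh38.p14, written 5′ to 3′ on the gene's own strand, and RefSeq gave such a window for 9 of the 10 genes, 15 windows in all, 2 of them for HERC3. Capitals mark matches on either strand to the core of the interferon-stimulated response element, GAAANNGAA, or to the E-box CACGTG, which reads the same on both strands and is a site for MYC and related factors.
PPM1K (chr4:88284562-88284811, minus strand): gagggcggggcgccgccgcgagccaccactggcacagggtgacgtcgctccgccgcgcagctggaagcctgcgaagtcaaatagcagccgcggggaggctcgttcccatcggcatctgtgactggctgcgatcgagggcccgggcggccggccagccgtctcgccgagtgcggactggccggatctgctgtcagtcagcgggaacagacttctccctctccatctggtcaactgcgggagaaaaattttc
PPM1K-DT (chr4:88284680-88284929, plus strand): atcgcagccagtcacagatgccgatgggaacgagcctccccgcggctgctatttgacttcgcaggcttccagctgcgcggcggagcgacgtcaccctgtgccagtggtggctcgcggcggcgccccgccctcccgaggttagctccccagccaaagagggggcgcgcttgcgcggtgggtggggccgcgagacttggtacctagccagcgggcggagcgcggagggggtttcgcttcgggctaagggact
HERC6 (chr4:88378602-88378851, plus strand): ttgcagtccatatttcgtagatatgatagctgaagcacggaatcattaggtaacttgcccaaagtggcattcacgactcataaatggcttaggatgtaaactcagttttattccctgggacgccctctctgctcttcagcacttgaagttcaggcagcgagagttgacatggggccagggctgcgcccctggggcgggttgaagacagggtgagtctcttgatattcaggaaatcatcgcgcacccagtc
HERC5 (chr4:88456869-88457118, plus strand): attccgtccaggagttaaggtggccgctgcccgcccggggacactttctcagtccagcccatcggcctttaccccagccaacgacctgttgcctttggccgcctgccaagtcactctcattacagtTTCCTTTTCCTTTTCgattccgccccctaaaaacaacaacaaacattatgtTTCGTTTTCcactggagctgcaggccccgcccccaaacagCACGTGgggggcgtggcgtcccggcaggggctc
HERC3, first start (chr4:88523593-88523842, plus strand): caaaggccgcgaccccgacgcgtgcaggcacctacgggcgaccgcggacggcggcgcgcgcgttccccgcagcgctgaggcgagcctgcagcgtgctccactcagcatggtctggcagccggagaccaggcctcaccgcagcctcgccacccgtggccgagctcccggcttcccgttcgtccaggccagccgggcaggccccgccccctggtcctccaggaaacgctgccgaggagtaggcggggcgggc
HERC3, second start (chr4:88592230-88592479, plus strand): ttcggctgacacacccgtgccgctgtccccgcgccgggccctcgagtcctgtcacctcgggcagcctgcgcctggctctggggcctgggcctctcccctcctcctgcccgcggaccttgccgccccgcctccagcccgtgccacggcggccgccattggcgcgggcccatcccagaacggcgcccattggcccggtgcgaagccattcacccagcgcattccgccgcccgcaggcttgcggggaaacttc

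The PPM1K and PPM1K-DT windows overlap on opposite strands, as 368 bases separate the RefSeq start sites of the pair (88284561 and 88284930). The 2 RNAs are transcribed away from each other. In GENCODE the starts are instead at 88284769 and 88284507, so there the 2 genes overlap. HERC5 was the only gene of these 5 with a match. It had 3 response element cores, which begin 124, 118 and 73 bases before the start on the minus strand, the first 2 overlapping, and a single E-box 33 bases before the start. The core was found in 6.88% and the E-box in 6.34% of all 35116 promoter windows of the same length. Over the 15 windows of the locus genes, 2 held the core (HERC5 and 1 of ABCG2) and 4 held the E-box (HERC5, 2 overlapping windows of ABCG2 and 1 of FAM13A). A match to such short letters is a description of the window and not a binding site.

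HERC3 (ENSG00000138641, 88592434 to 88708541, plus strand) had 542, 453 and 742 counts in LNCaP-AI vehicle samples 1 to 3 and 1736, 1626 and 1566 counts in the DOX samples. The level was 24.7 ± 0.902 CPM (SD, n = 3) with vehicle and 84.0 ± 11.7 CPM (SD, n = 3) with DOX, and the groups did not overlap. The log2 fold change was 1.74 (SE 0.124), and it was 1.90 within the side of vehicle 1, DOX 2 and DOX 3 and 1.50 within the side of vehicle 2, vehicle 3 and DOX 1. In DU-145 cells HERC3 had 60, 42 and 70 counts with vehicle and 76, 88 and 76 with DOX, or 5.02 ± 0.819 and 6.95 ± 0.217 CPM (SD, n = 3 each). The groups again did not overlap, with a log2 fold change of 0.47 (SE 0.166). With each sample left out in turn it ran from 0.37 to 0.59 in DU-145 and from 1.66 to 1.88 in LNCaP-AI cells.

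HERC6 (ENSG00000138642, 88378739 to 88443097, plus strand) and HERC5 (ENSG00000138646, 88457119 to 88506163, plus strand) lie side by side upstream of HERC3. HERC6 had 476, 365 and 472 counts in LNCaP-AI vehicle samples and 635, 596 and 614 with DOX, which is 19.1 ± 2.46 and 31.5 ± 4.90 CPM (SD, n = 3 each). HERC5 had 174, 112 and 152 counts with vehicle and 217, 244 and 244 with DOX, or 6.35 ± 1.28 and 12.2 ± 2.89 CPM (SD, n = 3 each). For both genes all DOX samples were above all vehicle samples, with DOX 1 the lowest of the DOX samples. The log2 fold change was 0.70 (SE 0.166) for HERC6 and 0.91 (SE 0.251) for HERC5. Within the sides it was 0.69 and 0.52 for HERC6 and 0.83 and 0.64 for HERC5. In DU-145 cells HERC6 had 275, 195 and 265 counts with vehicle and 237, 287 and 238 with DOX, and HERC5 had 318, 246 and 310 against 275, 277 and 256. These groups overlapped, and the log2 fold changes were 0.04 (SE 0.0954) and -0.13 (SE 0.0946).

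PPM1K (ENSG00000163644, 88257620 to 88284769, minus strand) had 1729, 1022 and 1565 counts in LNCaP-AI vehicle samples and 2237, 2256 and 2254 with DOX. This was 62.1 ± 13.1 against 116 ± 21.3 CPM (SD, n = 3 each), without overlap, with a log2 fold change of 0.87 (SE 0.208), and with 0.73 and 0.74 within the sides. In DU-145 cells PPM1K had 63, 35 and 68 counts with vehicle and 42, 72 and 50 with DOX, an overlapping pair of groups with a log2 fold change of -0.03 (SE 0.204).

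PPM1K-DT (ENSG00000246375, 88284507 to 88341661, plus strand) differed most of the locus genes. It had 16, 8 and 11 counts in LNCaP-AI vehicle samples and 222, 209 and 199 with DOX, which is 0.508 ± 0.180 against 10.7 ± 1.51 CPM (SD, n = 3 each). The log2 fold change was 4.36 (SE 0.314), and 3.84 and 4.18 within the sides. PPM1K-DT passed the filter on low counts only through the DOX samples, where it is high. A single PPM1K-DT count was found in the 6 DU-145 samples together, so no comparison was made there. Set against PPM1K in the same sample, which needs no scaling between samples, PPM1K-DT counts were 0.925%, 0.783% and 0.703% of PPM1K counts in LNCaP-AI vehicle samples and 9.92%, 9.26% and 8.83% with DOX. The partner transcripts therefore did not change by the same factor. Their annotated exons share 263 bases on opposite strands, and whether the counting used strand is not stated, so reads from that stretch cannot be told apart.

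PIGY (ENSG00000255072, 88520998 to 88523776, minus strand) is listed at 0 in all 12 samples. Its annotated exons coincide with those of PYURF (ENSG00000145337) over all 1311 bases, and PYURF had 2 counts in LNCaP-AI vehicle 1, 1 in DOX 3 and 0 elsewhere. How reads shared by 2 genes were counted is not stated, so these values are not read as a level of either.

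NAP1L5 (ENSG00000177432, 88695913 to 88697829, minus strand) lies within the HERC3 gene and shares 0 exonic bases with it. It did not follow HERC3. Its counts in LNCaP-AI cells were 0, 29 and 32 with vehicle and 33, 1 and 1 with DOX, so that vehicle 2, vehicle 3 and DOX 1 held nearly all of them, the same 3 samples that stand together on the first principal component. The log2 fold change was -0.80 (SE 1.48), and within the sides it was 0.65 and 0.01. The 0.65 rests on 0 counts against 1 and 1 and on the 0.1 CPM added to each mean, so no direction is read from it. In DU-145 cells NAP1L5 had 64, 38 and 58 counts with vehicle and 40, 65 and 47 with DOX, with a log2 fold change of -0.09 (SE 0.193).

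FAM13A (ENSG00000138640, 88725955 to 89111398, minus strand) lies beyond the far end of HERC3 and was the steadiest gene of the locus in LNCaP-AI cells, with 569, 478 and 600 counts with vehicle and 544, 447 and 408 with DOX. Its log2 fold change there was -0.05 (SE 0.126), and -0.06 and -0.07 within the sides, with overlapping groups. In DU-145 cells it had 160, 118 and 147 counts with vehicle and 153, 187 and 171 with DOX. Its CPM did not overlap between those groups, at 12.5 ± 0.596 and 14.8 ± 0.364 (SD, n = 3 each), with a log2 fold change of 0.25 (SE 0.111). The ratio of HERC3 to FAM13A counts within a sample was 0.953, 0.948 and 1.24 in LNCaP-AI vehicle samples and 3.19, 3.64 and 3.84 with DOX, against 0.356 to 0.476 and 0.444 to 0.497 in DU-145 cells. FAM13A-AS1 (ENSG00000248019), a noncoding RNA on the plus strand between HERC3 and FAM13A whose exons share 825 bases with FAM13A, had 9, 3 and 15 counts with vehicle and 20, 22 and 14 with DOX in LNCaP-AI cells, a log2 fold change of 1.32 (SE 0.462), and 1.16 and 1.05 within the sides. FAM13A-AS1 passed the filter on low counts only through the DOX samples, so a difference was built into its being tested.

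PKD2 (ENSG00000118762, 88007635 to 88077777, plus strand) and ABCG2 (ENSG00000118777, 88090150 to 88231628, minus strand) form the centromeric end. PKD2 had 545, 351 and 529 counts in DU-145 vehicle samples and 160, 227 and 160 with DOX, or 41.5 ± 5.22 against 15.7 ± 1.92 CPM (SD, n = 3 each). ABCG2 had 167, 108 and 150 counts with vehicle and 68, 90 and 86 with DOX, or 12.4 ± 1.39 against 7.04 ± 0.605 CPM (SD, n = 3 each). All DU-145 DOX samples were below all vehicle samples for both genes, with log2 fold changes of -1.39 (SE 0.109) for PKD2 and -0.81 (SE 0.138) for ABCG2. In LNCaP-AI cells PKD2 had 869, 525 and 802 counts with vehicle and 536, 443 and 479 with DOX, and ABCG2 had 181, 134 and 196 against 128, 81 and 90. On the CPM scale the DOX samples were again below the vehicle samples for both, with log2 fold changes of -0.38 (SE 0.174) and -0.59 (SE 0.149). Within the sides these were -0.57 and -0.36 for PKD2 and -0.72 and -0.42 for ABCG2.

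Counted over the locus, 9 of the 10 genes passed the filter on low counts in LNCaP-AI cells, 4 were called higher (PPM1K, PPM1K-DT, HERC6 and HERC3) and 0 lower, where 7.22% of the 16030 genes tested were called higher and 5.52% lower. In DU-145 cells 8 passed, 1 was called higher (HERC3) and 2 lower (PKD2 and ABCG2), where 26.3% of 13644 genes were called higher and 25.3% lower. The locus genes tested had a median log2 fold change of 0.70 in LNCaP-AI and -0.06 in DU-145 cells, beside medians over all genes of -0.05 and 0.00. Because the genes were picked with this contrast known, nothing is read from these counts. The counts also depended on the samples and settings. Without DOX 2 or DOX 3, fits in which 1 gene of all was called, 0 of HERC3, PPM1K-DT, PPM1K and HERC6 were called in LNCaP-AI cells, and without vehicle 2 or vehicle 3 PPM1K and HERC6 were not. Without DOX 1, HERC5 (1.14) and ABCG2 (-0.59) were called as well. In other settings that kept all samples, ABCG2 was called lower in 5 of 8 and HERC5 higher in 3 of 8. In DU-145 cells HERC3 was not called without vehicle 1 (0.42), vehicle 2 (0.37), DOX 1 (0.45) or DOX 2 (0.48), nor in DESeq2 (0.46).

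**Figure D2:**
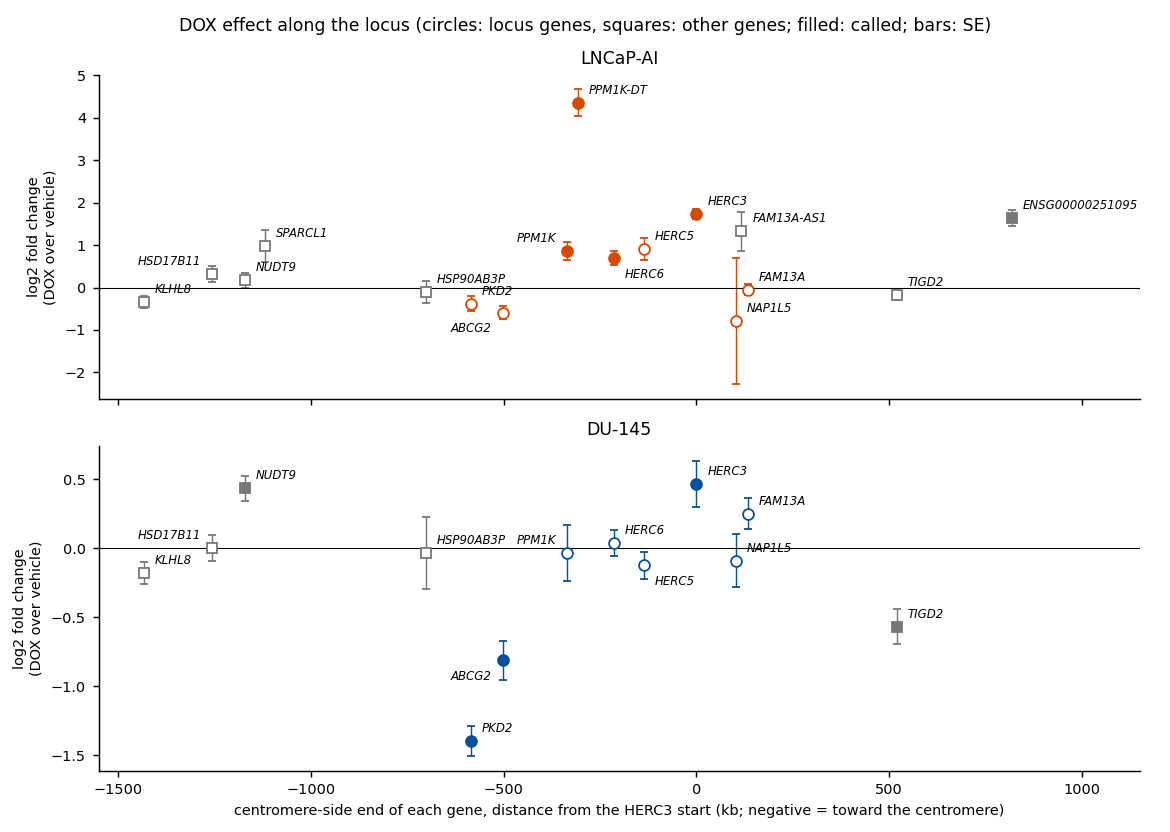
Log2 fold change of DOX over vehicle (vertical axes, which differ in scale between the lines) against distance from the HERC3 start in kb for genes within 1 Mb of the locus that passed the filter; circles are the locus genes, squares other genes, filled symbols mark an adjusted p under 0.05, a description only for the locus genes, and bars show the SE. In LNCaP-AI cells PPM1K, PPM1K-DT, HERC6, HERC5 and HERC3 lie between 0.70 and 4.36 while PKD2, ABCG2 and FAM13A lie at or below 0, and in DU-145 cells PKD2 lies lowest at -1.39.

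The genes further out on both sides were not among those picked, and their DOX differences were tested. Their lists were drawn up with earlier results of these data known, so these are not blind tests. Of 14 listed genes toward the centromere, 7 were tested in LNCaP-AI cells and 0 were called by edgeR, with 0.43 and 0.23 (C4orf36), 0.34 and 0.22 (AFF1) and -0.03 and 0.24 (NUDT9) within the sides. SPARCL1 had 22, 17 and 15 counts with vehicle and 37, 20 and 39 with DOX there, with 0.71 and 0.98 within the sides. In DU-145 cells, where 26.3% of all genes were called higher and 25.3% lower, 6 were tested and 3 were called, all higher: AFF1, a transcription elongation factor (0.80, adjusted p = 2.30e-08), NUDT9, an ADP-ribose pyrophosphatase (0.43, adjusted p = 0.000551), and C4orf36 (0.66, adjusted p = 0.00807, all from edgeR's quasi-likelihood test). Of 6 listed genes toward the telomere, 2 were tested in LNCaP-AI cells with 0 called, and in DU-145 cells TIGD2 was the single gene tested and was lower (-0.57, adjusted p = 0.000969 from the same test). Within 1 Mb of the locus 8 genes beside the locus genes were tested in LNCaP-AI cells, where 7.22% of all genes were called higher and 5.52% lower. FAM13A-AS1, which passed the filter only through the DOX samples, is among the 8, and 1 of the 8 was called. The called gene was the noncoding RNA ENSG00000251095, 818.5 kb beyond the HERC3 start, which is named here after its value was seen. It had 44, 39 and 48 counts with vehicle and 129, 103 and 124 with DOX, a log2 fold change of 1.64 (SE 0.193, edgeR adjusted p = 0.0123).

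The lines were then compared in vehicle, which asks how the locus stood before MUC1 was silenced. Of 15628 genes tested, 35.0% were called higher and 30.2% lower in LNCaP-AI than in DU-145 cells, and of the 8 locus genes tested 3 were higher and 3 lower. PPM1K was 12.5-fold higher in LNCaP-AI cells (log2 difference 3.64, SE 0.230, adjusted p = 2.07e-05 from edgeR), with 54.4 to 77.2 CPM against 3.54 to 5.71 CPM. HERC3 was 4.79-fold higher (2.26, SE 0.158, adjusted p = 3.06e-05), with 24.2 to 25.8 CPM against 4.25 to 5.88. FAM13A was higher by 0.90 (SE 0.131, adjusted p = 0.000766). HERC5 went the other way, with 5.28 to 7.77 CPM in LNCaP-AI against 24.9 to 26.1 in DU-145 cells (-2.05, SE 0.171, adjusted p = 6.05e-05), and ABCG2 was lower by a log2 difference of -0.79 (SE 0.158, adjusted p = 0.00351). HERC6, between PPM1K and HERC5, did not pass (-0.21, SE 0.137, adjusted p = 0.204).

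NAP1L5 was lower in LNCaP-AI cells (-2.44, SE 0.818, adjusted p = 0.0326 from edgeR), but its LNCaP-AI vehicle counts were 0, 29 and 32. Without vehicle 1, the sample at 0, the difference was -1.81 (adjusted p = 1.14e-06), and it did not pass when any other sample was left out (-2.94 to -2.37). PKD2 was at -0.43 (SE 0.166, adjusted p = 0.0521) and passed without LNCaP-AI vehicle 1 (-0.54) or without DU-145 vehicle 2 (-0.57). The ratio of HERC5 to HERC6 counts within a sample, 1.16 to 1.26 in DU-145 and 0.307 to 0.366 in LNCaP-AI vehicle samples, gives the same contrast between these adjacent paralogs with no scaling.

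**Figure D3:**
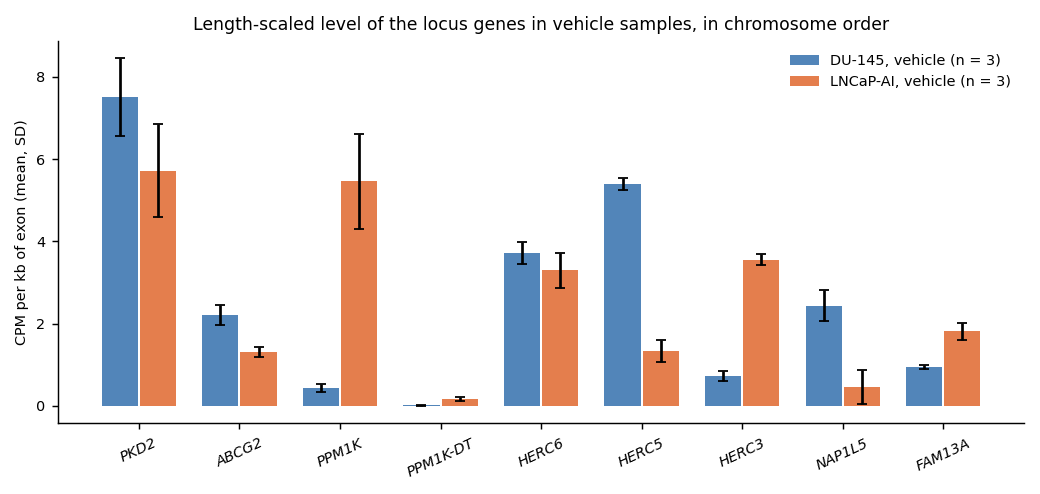
Mean level of 9 locus genes in vehicle samples of both lines as CPM per kb of annotated exon (vertical axis), in chromosome order, with the SD as error bars (n = 3 each). PPM1K stands at 0.423 in DU-145 and 5.46 in LNCaP-AI cells and HERC3 at 0.720 and 3.55, whereas HERC5 stands at 5.39 and 1.33.

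Scaled by exon length, the order of the levels differed between the lines. In DU-145 vehicle samples it ran from PKD2 (7.51 ± 0.943 CPM per kb) through HERC5 (5.39 ± 0.140), HERC6 (3.72 ± 0.267), NAP1L5 (2.43 ± 0.378), ABCG2 (2.21 ± 0.248), FAM13A (0.943 ± 0.0451) and HERC3 (0.720 ± 0.117) to PPM1K (0.423 ± 0.0992, SD, n = 3 each), and of these neighbours only NAP1L5 and ABCG2 had overlapping ranges. In LNCaP-AI vehicle samples PKD2 (5.71 ± 1.13) and PPM1K (5.46 ± 1.15) came first with overlapping ranges, followed by HERC3 (3.55 ± 0.129) and HERC6 (3.30 ± 0.425), which also overlapped. FAM13A (1.81 ± 0.203), HERC5 (1.33 ± 0.269) and ABCG2 (1.31 ± 0.117) overlapped in turn, and NAP1L5 (0.463 ± 0.417) and PPM1K-DT (0.166 ± 0.0588) were lowest of the genes with counts. With DOX the LNCaP-AI order was led by HERC3 (12.1 ± 1.68 CPM per kb) and PPM1K (10.2 ± 1.87), whose ranges overlapped, and PPM1K-DT (3.51 ± 0.493) ranked above HERC5 (2.56 ± 0.608). Exon lengths are those of all annotated transcripts together, so a gene with long rarely used exons is set too low on this scale.

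The pathways and families of the locus genes were followed through other genes. For each count below, the share of all genes called was 26.3% higher and 25.3% lower in DU-145 cells and 7.22% higher and 5.52% lower in LNCaP-AI cells. Of the HERC genes elsewhere in the genome, HERC1, HERC2 and HERC4, 0 of 3 were called in LNCaP-AI cells (log2 fold changes of -0.04, -0.32 and 0.09). Within the sides the values were -0.14 and -0.11 for HERC1, -0.27 and -0.11 for HERC2 and 0.35 and 0.11 for HERC4. In DU-145 cells HERC1 was higher (0.20, adjusted p = 0.0348 from edgeR), with HERC2 at 0.17 and HERC4 at 0.11. The list of ISG15 conjugation holds ISG15, its activating and conjugating enzymes, other ligases and a protease that removes it. Of its 6 genes, ISG15 itself rose in LNCaP-AI cells (1.08, SE 0.149, adjusted p = 0.0148 from edgeR, 0.95 and 1.16 within the sides) and the other 5 were not called. In DU-145 cells the ligase ARIH1 was the single call of 5 tested (0.19, adjusted p = 0.0431).

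HERC5 and HERC6 belong to the interferon-stimulated genes, and the difference between the lines in the DOX response of this list was not tested. Of 34 listed, 21 were tested in DU-145 cells, with 3 higher and 13 lower and a median log2 fold change of -0.38. DDX60 (-2.30, adjusted p = 2.11e-08), IFIT1 (-1.65, adjusted p = 3.83e-08) and IFIT2 (-1.22, adjusted p = 7.04e-07, edgeR) fell, and the RNA sensors IFIH1 (0.76, adjusted p = 2.12e-05) and RIGI (0.35, adjusted p = 0.00545) and the transcription factor STAT2 (0.32, adjusted p = 0.00284) rose. In LNCaP-AI cells 30 were tested, 7 were higher and 1 lower, and the median was 0.25. IFIT2 (1.67, adjusted p = 0.0123; 1.68 and 1.51 within the sides) and IFI35 (1.05, adjusted p = 0.0171, edgeR; 0.95 and 1.09) rose and OAS3 (-0.96, adjusted p = 0.0123; -1.10 and -0.74) fell. TRIM22, with 3, 3 and 5 counts with vehicle and 13, 10 and 11 with DOX, and SAMD9L, with 4, 3 and 3 against 14, 10 and 13, are 2 of the 7. They and 4 others of the 30 tested passed the filter on low counts only through the group where they were higher, so that a difference was built into their being tested and the count and median are not read as support.

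For branched-chain amino acid breakdown, the pathway PPM1K controls, 24 of 25 listed genes were tested in both lines. In DU-145 cells 11 were higher (26.3% of all genes) and 2 lower (25.3%) with a median log2 fold change of 0.22, and in LNCaP-AI cells 5 were higher (7.22% of all genes) and 1 lower (5.52%) with a median of 0.26. MCCC1, a subunit of the leucine-specific carboxylase, rose by 1.17 (adjusted p = 2.01e-09) in DU-145 and 0.62 (adjusted p = 0.0145, edgeR) in LNCaP-AI cells. DBT, the transacylase core of BCKDH, rose by 0.95 (adjusted p = 5.11e-09) and 0.65 (adjusted p = 0.0239, edgeR), and PCCB, a subunit of propionyl-CoA carboxylase, by 0.74 (adjusted p = 6.04e-08) and 0.59 (adjusted p = 0.0285, edgeR). BCAT1, the cytosolic transaminase at the head of the pathway, was lower in both lines (-0.53, adjusted p = 0.000337, and -0.66, adjusted p = 0.0427, edgeR). Within the LNCaP-AI sides the values were 0.66 and 0.62 for MCCC1, 0.65 and 0.55 for DBT, 0.52 and 0.60 for PCCB and -0.78 and -0.34 for BCAT1. ACADSB was lower in DU-145 cells (-0.59, adjusted p = 4.51e-05). BCKDK, the kinase that opposes PPM1K, was not called in either line (0.15, adjusted p = 0.0759, and 0.20, adjusted p = 0.131, edgeR; 0.21 and 0.28 within the LNCaP-AI sides). BCKDHA, the subunit that PPM1K dephosphorylates, is listed at 0 to 4 counts in every sample and was the gene not tested. How reads were assigned to genes is not stated, so these values are not read as its level.

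**Figure D4:**
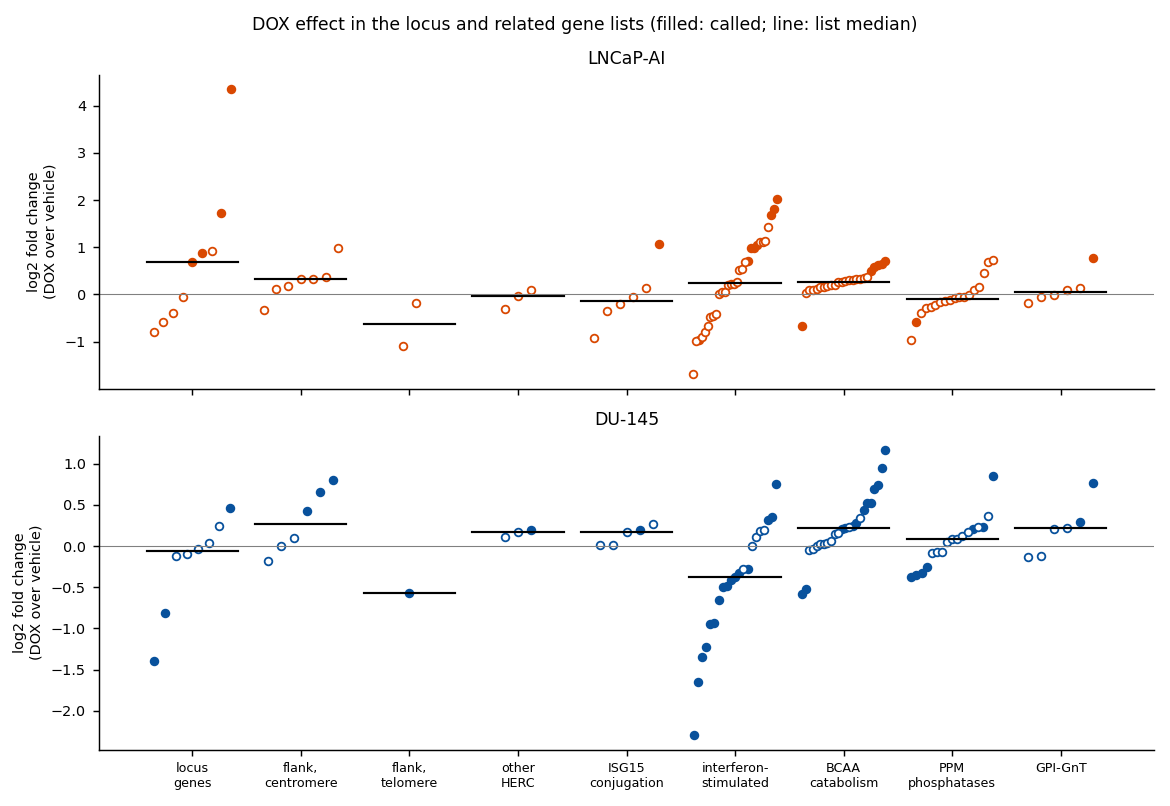
Log2 fold change of DOX over vehicle (vertical axes, which differ in scale between the lines) for each tested gene of the locus, its flanks and 6 related lists; filled symbols mark an adjusted p under 0.05, a description only for the locus genes, and lines mark the list medians. The interferon-stimulated genes have a median of -0.38 in DU-145 and 0.25 in LNCaP-AI cells, and the branched-chain amino acid (BCAA) genes 0.22 and 0.26.

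Relatives of PPM1K among the PPM phosphatases gave 3 higher and 4 lower of 17 tested in DU-145 cells. There 26.3% of all genes were called higher and 25.3% lower, and nothing is read from these counts. PDP1, which activates pyruvate dehydrogenase, rose by 0.85 (adjusted p = 8.08e-08), followed by PPM1G (0.21, adjusted p = 0.0161) and PHLPP1 (0.23, adjusted p = 0.0186), and TAB1 (-0.38, adjusted p = 0.00444), PPM1F (-0.33, adjusted p = 0.00632) and PHLPP2 (-0.25, adjusted p = 0.0136, edgeR) were lower. In LNCaP-AI cells 1 of 18 was called, the mitochondrial PPTC7 (-0.59, adjusted p = 0.0214, edgeR; -0.68 and -0.38 within the sides). Of the 6 other genes of the PIGY enzyme and its regulators (GPI-GnT), DPM2 (0.77, adjusted p = 2.94e-07) and PIGC (0.29, adjusted p = 0.0314) were higher in DU-145 cells and PIGH (0.78, adjusted p = 0.0217, edgeR; 0.66 and 0.84 within the sides) in LNCaP-AI cells.

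The relatives of the remaining genes were few. NAP1L2, of the NAP1L5 family, rose in both lines (1.10, adjusted p = 6.73e-05 in DU-145 and 1.19, adjusted p = 0.0324 in LNCaP-AI cells, edgeR), and NAP1L3 rose in LNCaP-AI cells (1.17, adjusted p = 0.0418, edgeR). Within the sides these were 0.97 and 1.13 for NAP1L2 and 0.99 and 0.99 for NAP1L3. Of the polycystin genes, PKD1, whose protein partners polycystin-2, was lower in DU-145 cells (-0.34, adjusted p = 0.0323, edgeR). PKD2L2 had 11, 9 and 9 counts with vehicle and 43, 40 and 37 with DOX in LNCaP-AI cells, and passed the filter only through the DOX samples. FAM13B was lower in DU-145 cells (-0.23, adjusted p = 0.0223, edgeR), and none of 2 ABCG genes tested in DU-145 and 1 in LNCaP-AI cells was called. The calls in LNCaP-AI cells depended on DOX 2 and DOX 3, since 1 gene of all was called when either was left out.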

How the data were processed

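Total RNA was isolated with Trizol and made into TruSeq stranded mRNA libraries. The authors aligned reads with STAR 2.7.0 to GRCh38.p7, after CASAVA 1.8.2, and deposited raw, unnormalized gene counts; their own analysis used DESeq2 1.24.0. The counter and its treatment of strand and shared reads are not given in the sources used here. Of 58037 identifiers 56948 matched a symbol, and positions come from GENCODE release 44.

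Groups were compared with edgeR 4.0.16 in R 4.3.3 (TMM, quasi-likelihood test) keeping genes that reached 10 counts in 3 or more samples of a comparison, with Benjamini-Hochberg adjustment over all genes. The SE was the log2 fold change over the square root of F. Values within LNCaP-AI sides are log2 differences of mean CPM plus 0.1. Counts carry no molecular identifiers, and the SE rests on the spread between replicates as well as on counting error. The steps were tested on simulated counts with 200 genes changed by a log2 fold change of 2. Of these 100% were recovered in the DU-145 and 67.5% in the LNCaP-AI comparison, with 18 and 9 false calls. A gene not called in LNCaP-AI cells may therefore still have changed. All replicates differed by more than sampling noise (smallest chi-square per degree of freedom 2.38).

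The locus genes and the lists were chosen with earlier results of these data known. Named were all locus genes, flanking and other HERC genes called with DOX, and from each other list up to 3 genes per direction by adjusted p, and the 5 genes most like HERC3; genes outside this rule (HERC2, HERC4, BCKDK and BCKDHA) are named for their role. Alternatives were DESeq2 1.42.0, 2 other normalizations, 2 other filters, a fit of all 12 samples, the replicate number as a block, and leaving out each sample. Protein sequences were not used here, and some listed markers and a motif are not reported here.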

Additional observations from a re-analysis of the deposited data

How the results depend on the processing

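Of the 331 alternative values computed for the locus genes, 275 kept their direction and side of the threshold, 30 lost the threshold, 17 gained it and 9 changed sign. The sign changes all concerned differences that were not called. Leaving out a sample gave DU-145 log2 fold changes of -0.021 to 0.066 for HERC6, -0.20 to 0.094 for PPM1K and -0.22 to 3e-04 for NAP1L5, and LNCaP-AI values of -0.15 to 0.029 for FAM13A, which was also at 0.006 with upper-quartile normalization. The fit of all 12 samples gave 4083 called genes in DU-145 cells, against 7033, and 3933 in LNCaP-AI cells, against 2043. DESeq2 called 3517 genes in LNCaP-AI cells, and leaving out a sample gave 1 to 3538 there, with the 1 without DOX 2 or DOX 3, 1096 without vehicle 2, 994 without vehicle 3 and 3538 without DOX 1. With the division of the LNCaP-AI samples as a covariate, a setting chosen after seeing the data and taken from the same counts, 6271 genes were called, PKD2 (-0.50), ABCG2 (-0.61) and HERC5 (0.71) among them, and NAP1L5 was at 0.10. Between the lines in vehicle, NAP1L5 and PKD2 were each called in 4 of 7 other settings that kept all samples. The cause was not tested.

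Replicate numbers did not pair the samples. The correlations of same-numbered deviations were 0.127, -0.0912 and 0.0763 in DU-145 and -0.940, -0.812 and -0.840 in LNCaP-AI cells. With the replicate number as a block edgeR called 6924 genes in DU-145 cells, 9378 between the lines and 0 in LNCaP-AI cells, where 2909 had an unadjusted p under 0.05. In that LNCaP-AI fit HERC3 was at 1.73 and PPM1K-DT at 4.40. Depth limits NAP1L5 and, in DU-145 cells, PPM1K, which had at most 72 counts in a sample.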

Other observations

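Genes outside the locus were ranked by how close their log2 CPM, centred within each line, stayed to HERC3 over all 12 samples. The share of the ranked genes on chromosome 4 was not computed, so nothing is read from the chromosomes of the 5 closest genes. By the root mean square difference over 12976 genes compared, they were the histone genes H3C10 (0.153) and H4C8 (0.175) on chromosome 6, the sodium/proton exchanger SLC9A9 (0.164) and the elongation factor partner EAF2 (0.168) on chromosome 3, and SGSM1 (0.192) on chromosome 22. Their DOX log2 fold changes in LNCaP-AI cells were 1.55 for H3C10, 1.80 for H4C8, 1.95 for SLC9A9, 1.86 for EAF2 and 1.60 for SGSM1. In DU-145 cells the same genes were at 0.55, 0.39, 0.24, 0.71 and 0.76. Of the locus, PPM1K (0.395), HERC5 (0.403) and HERC6 (0.414) were nearest to HERC3, and FAM13A (0.646), PPM1K-DT (0.922), ABCG2 (0.945), PKD2 (1.00) and NAP1L5 (1.49) were further away. These genes were chosen for their likeness, which draws on the same 12 samples, so it is a description.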
